A study of Mus musculus with 6 samples.

Results

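The genes described here are Mtor, Rptor, Rictor, Akt1, Akt2, Rps6kb1, Rps6kb2, Eif4ebp1 and Tsc2, which encode the kinases mTOR, Akt and S6K with the complex subunits, the inhibitor and the substrate that stand closest to them. They were chosen by symbol: each is a row of the count tables whose Ensembl identifier carries that symbol in GENCODE M21, and they are 9 of the 55335 genes in the tables. RNA was sequenced from B16-BL6 cells, a mouse melanoma line, in 3 cultures of scrambled control cells (replicates 1, 2 and 3) and 3 cultures of IFNγR1KO cells (replicates 10, 11 and 12). Both lines had been transduced with lentiCRISPR v2, a lentiviral vector for Cas9 and a guide, and selected with puromycin. The guide targeted GFP in scrambled control cells, whose genotype is labelled WT, and Ifngr1, a receptor gene for IFN-γ, in IFNγR1KO cells. IFNγR1KO cells were grown from single clones screened for PD-L1 after IFN-γ, and neither the labels nor the methods say whether the 3 cultures are of the same clone. Whether the scrambled control cells are a clone or a pool is not given either. Cells of both groups were seeded overnight in triplicate, and no cytokine or drug is named for this step. The p-values below measure the spread between these cultures, and what the guide did cannot be told apart from what sets 1 clone apart from another.

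mTOR works in 2 complexes. With Raptor it forms mTORC1, which phosphorylates S6K and the 4E-BPs and thereby promotes ribosome activity and cap-dependent translation, and with Rictor it forms mTORC2, which phosphorylates Akt. Akt, once activated at the membrane by PI3K signaling, phosphorylates TSC2, a brake on mTORC1, and this pathway is often active in melanoma. These steps are phosphorylations of proteins, so the RNA levels given here describe how much template there was for each protein and not how active any kinase was.

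Several of these genes have close paralogues, and the coding sequence around their regulatory sites shows how a read is assigned to one paralogue and not to another. The stretches below were read from GRCm38 with GENCODE M21 coding exons, each is 60 bases long and written 5′ to 3′ on the coding strand, and capitals mark positions at which the paralogues printed together differ. For Akt1 and Akt2 the stretch covers the activation loop, where PDK1 phosphorylates the kinase. The stretch lies at chr12:112657068-112657118 and chr12:112656983-112656991 (minus strand) in Akt1 and at chr7:27636117-27636167 and chr7:27636264-27636272 (plus strand) in Akt2. In both genes it runs from exon 10 into exon 11, the loop's motif starts within it at codon 308 of 480 in Akt1 and codon 309 of 481 in Akt2, and 10 of the 60 bases differ.
Akt1: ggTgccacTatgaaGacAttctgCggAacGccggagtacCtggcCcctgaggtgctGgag
Akt2: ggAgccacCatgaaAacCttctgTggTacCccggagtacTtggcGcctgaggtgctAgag

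For the S6 kinase genes the stretch covers the activation loop as well, at chr11:86513547-86513587 and chr11:86513372-86513390 (minus strand) in Rps6kb1 and at chr19:4159003-4159043 and chr19:4158901-4158919 (minus strand) in Rps6kb2. The motif starts at codon 252 of 525 in Rps6kb1 and codon 228 of 485 in Rps6kb2, the stretch runs from exon 8 into exon 9 in both, and 16 bases differ.
Rps6kb1: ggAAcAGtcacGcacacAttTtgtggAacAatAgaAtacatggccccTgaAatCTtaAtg
Rps6kb2: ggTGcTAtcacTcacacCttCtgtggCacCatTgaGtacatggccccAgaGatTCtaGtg

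For the 4E-BP genes the stretch covers the motif that binds eIF4E, codons 53 to 59 of 117 in Eif4ebp1 and codons 54 to 60 of 120 in Eif4ebp2. It lies at chr8:27260550-27260550 and chr8:27273323-27273381 (plus strand) in Eif4ebp1 and at chr10:61452402-61452402 and chr10:61435045-61435103 (minus strand) in Eif4ebp2. All but the first base of the stretch lie in exon 2, and 16 bases differ.
Eif4ebp1: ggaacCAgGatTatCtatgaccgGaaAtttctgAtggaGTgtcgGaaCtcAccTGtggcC
Eif4ebp2: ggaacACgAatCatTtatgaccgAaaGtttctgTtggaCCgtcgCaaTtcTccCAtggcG

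The differences are scattered over each stretch rather than gathered in 1 place. Over whole transcripts, no run of 50 bases was shared between Akt1 and Akt2, between the S6 kinase genes or between the 4E-BP genes. Akt2 shared 9.76% of its 50-base runs with the pseudogene Akt2-ps, which had at most 13 counts in any library, and Rps6kb2 shared 19.5% with Ptprcap, a gene on the other strand with at most 5 counts.

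The libraries held 9402640 to 10579788 counts on genes in scrambled control and 6698956 to 7409479 in IFNγR1KO cells, so that 1 count was worth 0.0966 to 0.109 CPM (counts divided by the library total and its TMM factor, as usual for CPM) and 0.136 to 0.142 CPM. Ifngr1 itself had 154, 144 and 172 counts in scrambled control libraries and 80, 85 and 82 in IFNγR1KO libraries, which did not overlap, with a log2 fold change of -0.47 (SE, standard error, 0.16; adjusted p = 0.0729). The 7 melanocyte markers examined summed to 31720 to 34660 CPM in scrambled control and 27900 to 32830 CPM in IFNγR1KO libraries. The 11 markers of leukocytes, endothelium, fibroblasts and keratinocytes summed to at most 4.88 CPM in any library, 5 of them were at 0 throughout, and 1 of the 11 had enough counts for the test. Neither that gene nor any of the 7 melanocyte markers passed it. Scrambled control replicate 3 and IFNγR1KO replicate 12 stood apart from the others in the same way: long genes were counted more and short genes less. A length index, the median log2 deviation of the longest 20% of tested genes minus that of the shortest 20%, was 0.36 and 0.25 in these 2 libraries and between -0.25 and -0.05 in the other 4. Fold changes of some genes are given below also with this index as a covariate, and for Akt1 also without both libraries. These alternatives were chosen after seeing the data, and the ratios within a library are given without the index.

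In IFNγR1KO cells, Eif4ebp1 rose 2.35-fold and Rps6kb2 rose 1.43-fold, while Mtor, Rptor, Rictor, Akt1, Akt2, Rps6kb1 and Tsc2 did not pass the test. The test was edgeR's quasi-likelihood test, fitted across 13642 genes with Benjamini-Hochberg adjustment, and a call is an adjusted p under 0.05. All 9 genes passed the filter on low counts. Of them 2, or 22.2%, were called, both higher in IFNγR1KO cells, beside 15.3% of all tested genes called, 7.73% higher and 7.62% lower. With the further limit of an absolute log2 fold change above 1, Eif4ebp1 was the 1 gene of the 9 that passed, beside 5.2% of all tested genes. In either direction together, both counts lie within 1 gene of what the shares of all genes give, so the number of calls does not set the 9 genes apart. The estimates were higher for 5 genes, of which Mtor and Tsc2 changed sign in fits without 1 library, and lower for 4, with a median log2 fold change of 0.03, beside -0.0015 over all tested genes. For 4 of the 9 genes the groups did not overlap (Rictor, Rps6kb2 and Eif4ebp1 higher, Akt1 lower in IFNγR1KO cells), beside 32.6% of all tested genes. In RNA from whole cultures, fewer cells with a transcript and less of it per cell cannot be told apart.

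**Figure D1:**
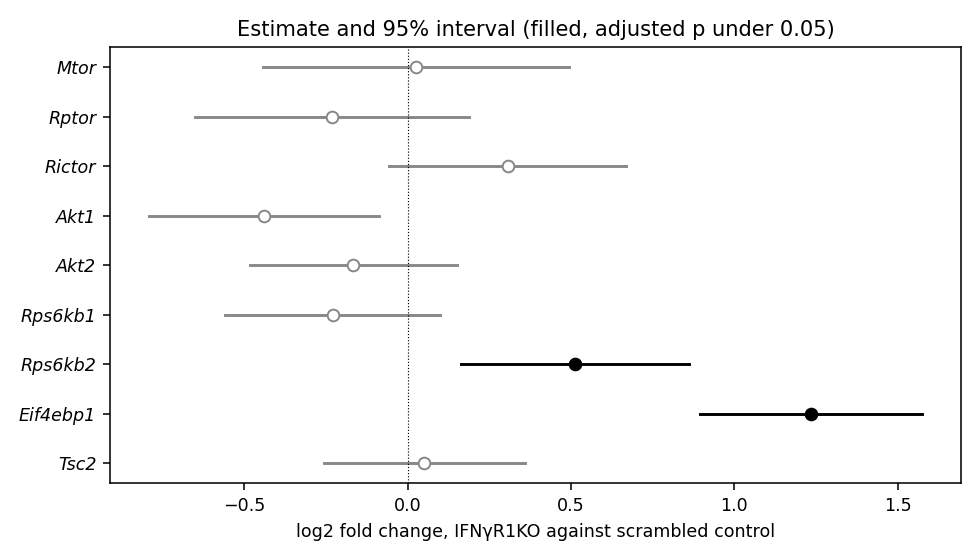
Log2 fold change of the 9 genes, IFNγR1KO against scrambled control cells (x axis), with the 95% confidence interval from edgeR's quasi-likelihood fit of 3 against 3 libraries; filled points have an adjusted p under 0.05. The intervals of Rps6kb2 and Eif4ebp1 lie above 0 and that of Eif4ebp1 is farthest to the right, while 6 of the other intervals include 0 and that of Akt1 ends just below it.

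Eif4ebp1 (ENSMUSG00000031490.6, chr8:27260329-27276674) encodes 4E-BP1, the translation repressor that binds the cap-binding protein eIF4E until mTORC1 phosphorylates it. Its counts were 1007, 1545 and 1165 in scrambled control libraries and 2149, 2165 and 2032 in IFNγR1KO libraries, or 109, 154 and 113 CPM against 305, 293 and 286 CPM. The lowest IFNγR1KO library was thus well above the highest scrambled control library, although the IFNγR1KO libraries held fewer counts in all. The mean rose from 125 ± 24.8 CPM to 295 ± 9.91 CPM (SD, n = 3 each), 2.35-fold (95% interval 1.86 to 2.98). The log2 fold change was 1.23 (SE 0.16, adjusted p = 0.000355), and the gene ranked 130 of 13642 by p. Among genes called higher, 279 had a larger change. It was called in all 6 fits without 1 library (adjusted p 5.33e-06 to 0.00318) and in 9 of 9 other alternatives, and with the length index as a covariate its log2 fold change was 1.22.

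The change was not shared by Eif4ebp2, a paralogue, or by Eif4e, which encodes the protein that 4E-BP1 binds. Eif4ebp2 (chr10:61428491-61452661), which encodes the paralogue 4E-BP2, was at 117, 110 and 171 CPM in scrambled control libraries and at 58.5, 73.7 and 102 CPM in IFNγR1KO libraries. Every IFNγR1KO library was below every scrambled control library, and the log2 fold change was -0.77 (SE 0.21, adjusted p = 0.0295). That call was kept in 2 of 6 fits without 1 library (adjusted p 0.000326 to 0.127) and in 8 of 9 other alternatives. In each group its highest value was in the library of high length index, and with the index as a covariate it was at -0.70 (adjusted p = 0.000176). Eif4ebp3 had a single count in scrambled control replicate 3, a single count in IFNγR1KO replicate 10 and none in the other 4 libraries, so no difference was detectable at this depth. Eif4e (chr3:138526179-138559696), the cap-binding protein itself, was at 231, 234 and 203 CPM against 177, 160 and 152 CPM. Its groups did not overlap either, with a log2 fold change of -0.45 (SE 0.14, adjusted p = 0.0407) that was called in 1 of 6 fits without 1 library and in 8 of 9 other alternatives.

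A ratio of 2 genes within a library does not depend on how libraries are scaled, and 8 such ratios were compared, each per kilobase of exon. The ratio of Eif4ebp1 to Eif4ebp2 was 2.46, 3.67 and 1.73 in scrambled control libraries and 13.7, 10.5 and 7.37 in IFNγR1KO libraries. It was thus 4.08-fold higher in IFNγR1KO cells, a difference of 2.03 on the log2 scale (standard error 0.41). The ratio of Eif4ebp1 to Eif4e went from 1.30, 1.80 and 1.52 to 4.72, 5.02 and 5.14, a 3.25-fold difference (1.70 on the log2 scale, standard error 0.14). Neither ratio overlapped between groups, and both had p = 0.1 by the two-sided exact permutation test, the smallest p that 3 libraries against 3 allow. No ratio could therefore pass after adjustment over the 8 (adjusted p = 0.2 for these). As a share of the counted 4E-BP transcripts per length, Eif4ebp1 made up 71.0 ± 7.65% in scrambled control and 90.8 ± 2.55% in IFNγR1KO cells (SD, n = 3 each). Eif4ebp2 made up 29.0% and 9.14%. The family together went from 80.05 ± 9.56 to 148 ± 1.52 CPM per kilobase (SD, n = 3 each), with no overlap between groups.

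**Figure D2:**
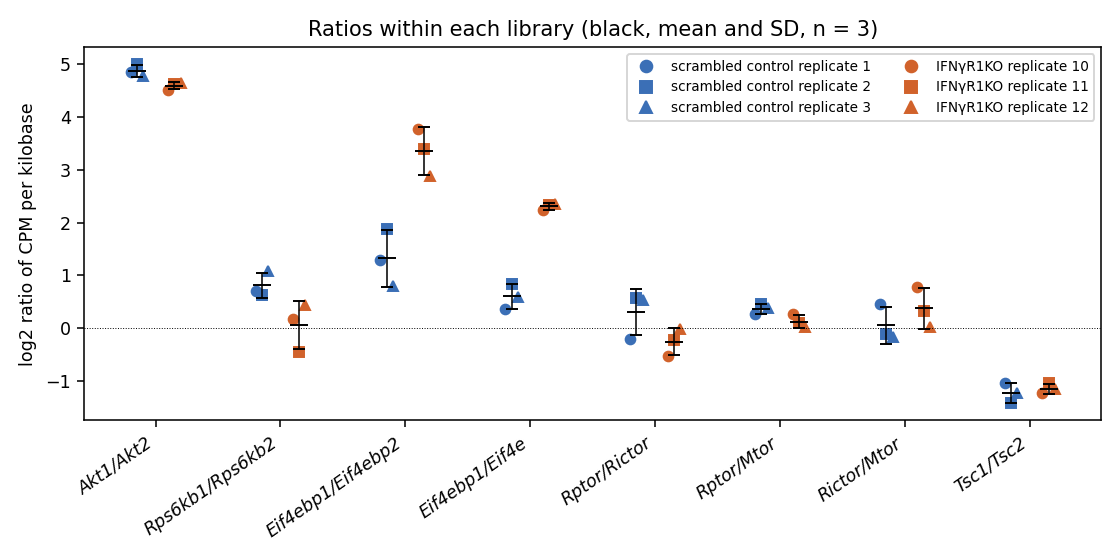
Log2 ratio of the CPM per kilobase of exon of 2 genes within each library (y axis) for the 8 ratios compared (x axis); points are libraries, black bars are group means with SD (n = 3). Both ratios with Eif4ebp1 on top are higher in every IFNγR1KO library, Akt1/Akt2 and Rps6kb1/Rps6kb2 are lower in every IFNγR1KO library, and the other 4 overlap.

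The S6 kinases, which phosphorylate the ribosomal protein S6 after activation by mTORC1, changed in opposite directions by their estimates, and the change of Rps6kb2 passed the test. Rps6kb2 (ENSMUSG00000024830.17, chr19:4153991-4163354), which encodes S6K2, had 191, 228 and 185 counts in scrambled control and 197, 247 and 185 in IFNγR1KO libraries. With the smaller IFNγR1KO totals these were 20.7, 22.7 and 17.9 CPM against 28.0, 33.5 and 26.0 CPM, and the groups did not overlap. The mean went from 20.4 ± 2.42 to 29.1 ± 3.86 CPM (SD, n = 3 each), 1.43-fold, with a log2 fold change of 0.51 (SE 0.16, adjusted p = 0.0489). This lay at the limit of the test: it was kept in 1 of 6 fits without 1 library, that without IFNγR1KO replicate 12, and lost without each of the other 5 (adjusted p up to 0.216). It was kept in 5 of 9 other alternatives (adjusted p 0.00887 to 0.0656).

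Of the exonic bases of Rps6kb2, 23.7% lie under exons of Coro1b and Ptprcap on the other strand. Ptprcap, with at most 5 counts in a library, shared 19.5% of the 50-base runs of Rps6kb2, and Coro1b shared none. Whether reads were counted by strand is not given in the sources used here. Coro1b, an actin regulator, went from 115 to 144 CPM in IFNγR1KO cells (log2 fold change 0.33, adjusted p = 0.142), so its level moved in the same direction. The part of reads from either gene in the count of Rps6kb2 was not tested.

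Rps6kb1 (ENSMUSG00000020516.15, chr11:86498871-86544805), which encodes S6K1, was at 57.0, 59.2 and 63.7 CPM in scrambled control libraries. In IFNγR1KO libraries it was at 53.3, 41.3 and 58.9 CPM, where replicate 12 reached into the range of scrambled control. The log2 fold change was -0.23 (95% interval -0.56 to 0.10, adjusted p = 0.356). The ratio of Rps6kb1 to Rps6kb2 per length was 1.64, 1.56 and 2.13 in scrambled control and 1.14, 0.737 and 1.35 in IFNγR1KO libraries, without overlap (difference -0.75 on the log2 scale, standard error 0.29, exact permutation p = 0.1, adjusted p = 0.2). Rps6kb1 thus made up 63.7 ± 3.80% of the S6 kinase transcripts in scrambled control and 51.0 ± 7.75% in IFNγR1KO cells (SD, n = 3 each). The sum of both was 10.9 ± 0.321 and 11.55 ± 0.295 CPM per kilobase (SD, n = 3 each), a sum that depends on the exonic lengths used.

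**Figure D3:**
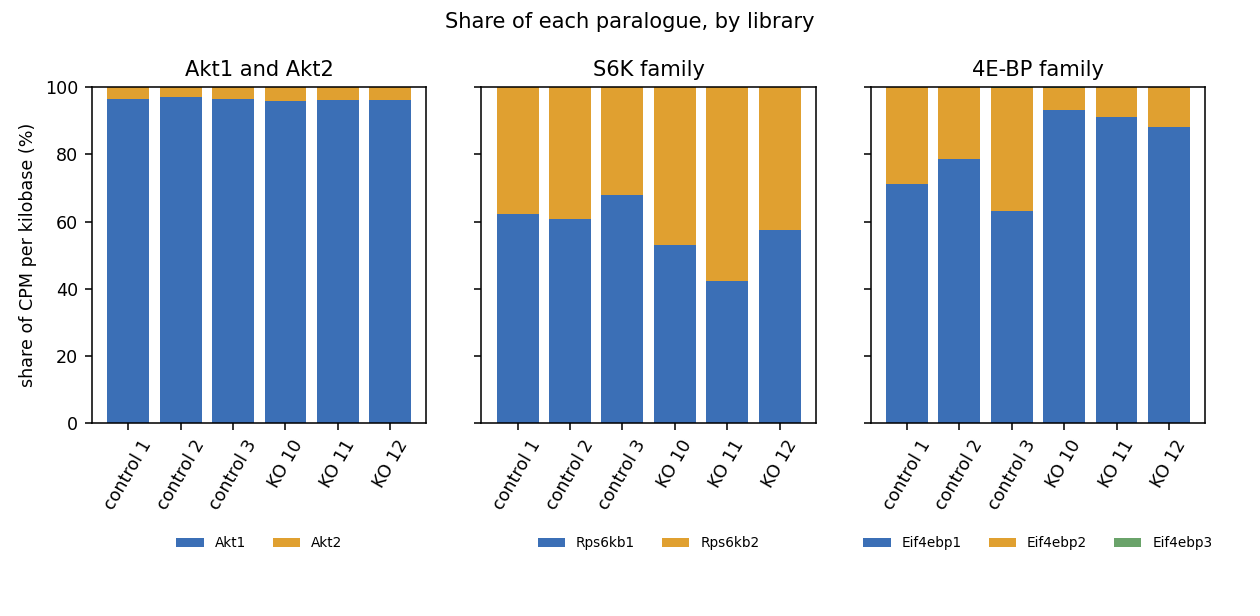
Share of each gene in the summed CPM per kilobase of exon of the paralogues drawn together (y axis, percent) in each of the 6 libraries (x axis; KO stands for IFNγR1KO). Akt1 fills between 95.8% and 97.0% of every bar of Akt1 and Akt2, while Eif4ebp1 goes from between 63.3% and 78.6% to between 88.1% and 93.1% and Rps6kb1 from between 60.9% and 68.0% to between 42.4% and 57.5%.

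Akt1 (ENSMUSG00000001729.14, chr12:112653821-112674884), the widely expressed Akt kinase, was by far the most abundant of the 9 genes and was lower in IFNγR1KO cells without passing the test. It had 11318, 14298 and 16021 counts in scrambled control and 6460, 7521 and 8249 in IFNγR1KO libraries, or 1229, 1423 and 1548 CPM against 918, 1019 and 1160 CPM. The groups did not overlap, but each spread widely, and the highest IFNγR1KO library was close to the lowest scrambled control library. The log2 fold change was -0.44 (standard error 0.16, 95% interval -0.79 to -0.09, adjusted p = 0.0896), which is 1.36-fold lower. With the length index as a covariate the estimate was nearly the same, -0.42, with a smaller standard error of 0.10 and an adjusted p of 0.00602, in a fit that called 28.8% of all tested genes. Without both libraries of high length index it was -0.46 (adjusted p = 0.00475, beside 22.3% of tested genes called). Akt1 was called in 1 of 6 fits without 1 library (adjusted p 0.0353 to 0.326) and in 4 of 9 other alternatives (adjusted p 0.00475 to 0.141). Among the latter was the Wald test of DESeq2 (adjusted p = 0.0273).

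Akt2 (ENSMUSG00000004056.15, chr7:27591552-27640826), the paralogue best known from insulin-stimulated glucose uptake, was at 74.4, 77.6 and 98.2 CPM in scrambled control and 69.8, 72.1 and 81.1 CPM in IFNγR1KO libraries. The groups overlapped, with a log2 fold change of -0.17 (95% interval -0.48 to 0.15, adjusted p = 0.505). Per length there was 28.8, 31.9 and 27.4 times as much Akt1 as Akt2 in scrambled control libraries and 22.9, 24.6 and 24.9 times as much in IFNγR1KO libraries. This ratio did not overlap between groups (difference -0.28 on the log2 scale, standard error 0.07, exact permutation p = 0.1, adjusted p = 0.2). As a share of both genes' transcripts per length, Akt1 went from 96.7 ± 0.243% to 96.0 ± 0.174% (SD, n = 3 each), and Akt2 stood at 3.31% and 3.98%. Their sum followed Akt1, from 353 ± 40.9 to 262 ± 30.5 CPM per kilobase (SD, n = 3 each), with no overlap.

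The subunits that define the mTOR complexes did not pass the test. Mtor (ENSMUSG00000028991.15, chr4:148448611-148557683), the kinase of both complexes, was at 29.6, 28.0 and 42.9 CPM in scrambled control and 24.4, 34.8 and 43.2 CPM in IFNγR1KO libraries. The groups overlapped almost fully, and the log2 fold change was 0.03 (95% interval -0.44 to 0.50, adjusted p = 0.957). As a fold the interval ran from 0.736 to 1.41, so the counts do not show that Mtor was equal. Rptor (ENSMUSG00000025583.15, chr11:119602905-119899576), which encodes the mTORC1 subunit Raptor, was at 47.3, 51.1 and 74.2 CPM against 39.1, 49.7 and 58.3 CPM. Its groups overlapped as well, with a log2 fold change of -0.23 (95% interval -0.65 to 0.19, adjusted p = 0.479). Rictor (ENSMUSG00000050310.9, chr15:6708379-6800401), the subunit that defines mTORC2, was at 68.4, 43.2 and 64.1 CPM in scrambled control and 70.8, 72.9 and 73.7 CPM in IFNγR1KO libraries. The IFNγR1KO libraries lay close together and just above the scrambled control libraries, of which replicate 2 was low, and the log2 fold change was 0.31 (95% interval -0.06 to 0.67, adjusted p = 0.252).

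In both groups the highest values of Mtor and Rptor were in the library of high length index, scrambled control replicate 3 and IFNγR1KO replicate 12. Over the 6 libraries Pearson's r with the index was 0.86 for Mtor, 0.83 for Rptor, 0.84 for Akt2 and 0.80 for Tsc2, a description over points that share the count tables from which the index was made. With the index as a covariate, the standard error of Mtor fell from 0.22 to 0.13 and its log2 fold change was 0.10 (adjusted p = 0.608). In the same fit Rptor was at -0.16 (adjusted p = 0.340), Rictor at 0.35 (adjusted p = 0.0566), Akt2 at -0.13 (adjusted p = 0.364) and Tsc2 at 0.08 (adjusted p = 0.587). None of these 5 genes was called in any alternative. The ratio of Rptor to Rictor per length, a comparison of the mTORC1 and mTORC2 subunits, was 0.870, 1.49 and 1.46 in scrambled control and 0.694, 0.857 and 0.995 in IFNγR1KO libraries. It overlapped through scrambled control replicate 1 (difference -0.56 on the log2 scale, standard error 0.29, exact permutation p = 0.2, adjusted p = 0.267). The ratios of Rptor and of Rictor to Mtor differed by -0.24 and 0.32, with standard errors of 0.09 and 0.30 and exact permutation p = 0.2 and p = 0.3.

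**Figure D4:**
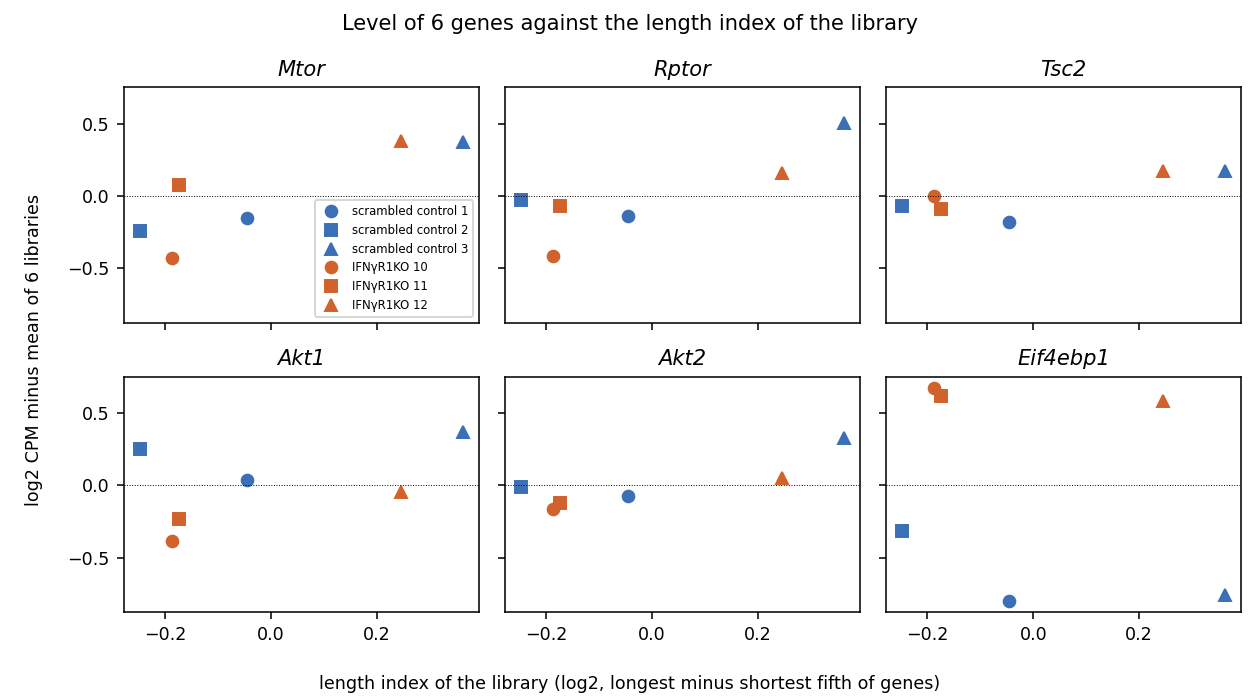
Deviation of log2 CPM from the mean of the 6 libraries (y axis) against the length index of the library (x axis, log2) for 6 genes; each point is a library. Mtor, Rptor and Tsc2 are highest in scrambled control replicate 3 and IFNγR1KO replicate 12, the 2 libraries at the right, while Eif4ebp1 separates the groups at every value of the index.

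Tsc2 (ENSMUSG00000002496.10, chr17:24595816-24632630) encodes tuberin, which with TSC1 inactivates Rheb, the GTPase that switches on mTORC1. It was at 63.2, 68.0 and 80.4 CPM in scrambled control and 71.6, 67.1 and 80.7 CPM in IFNγR1KO libraries, nearly the same range. The log2 fold change was 0.05 (95% interval -0.26 to 0.36, adjusted p = 0.856). An overlap with Pkd1 on the other strand covers 7.2% of its exonic bases, and Pkd1 had a log2 fold change of 0.18 (adjusted p = 0.522). Its partner Tsc1 had a log2 fold change of 0.14 (adjusted p = 0.614), and the ratio of Tsc1 to Tsc2 differed by 0.09 on the log2 scale (standard error 0.12, exact permutation p = 0.6).

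Per kilobase of exon, the level of the 9 genes spanned from 3.31 ± 0.810 CPM for Mtor to 342 ± 39.3 CPM for Akt1 in scrambled control cells (SD, n = 3 each). Akt1 was above 98.7% of the tested genes, Eif4ebp1 above 92.0% and Mtor above 33.1%. The order was Akt1, Eif4ebp1 at 57.0 ± 11.3, Akt2 at 11.7 ± 1.81, Tsc2 at 7.33 ± 0.923, Rps6kb1 at 6.92 ± 0.394, Rptor at 4.27 ± 1.08, Rps6kb2 at 3.95 ± 0.468, Rictor at 3.46 ± 0.796 and then Mtor, all in CPM per kilobase (SD, n = 3). Tsc2 and Rps6kb1 overlapped over libraries, and so did each neighbouring pair among Rptor, Rps6kb2, Rictor and Mtor. In IFNγR1KO cells the first 5 genes kept their order, and Rps6kb2 at 5.64 ± 0.747 CPM per kilobase came next, above Rictor at 4.28 ± 0.0891, Rptor at 3.64 ± 0.717 and Mtor at 3.38 ± 0.928 (SD, n = 3). There Rps6kb2 overlapped with Rps6kb1 and lay above every library of Rictor. The distance from Akt1 to Eif4ebp1 also narrowed, to 252 ± 29.6 against 134 ± 4.51 CPM per kilobase (SD, n = 3).

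**Figure D5:**
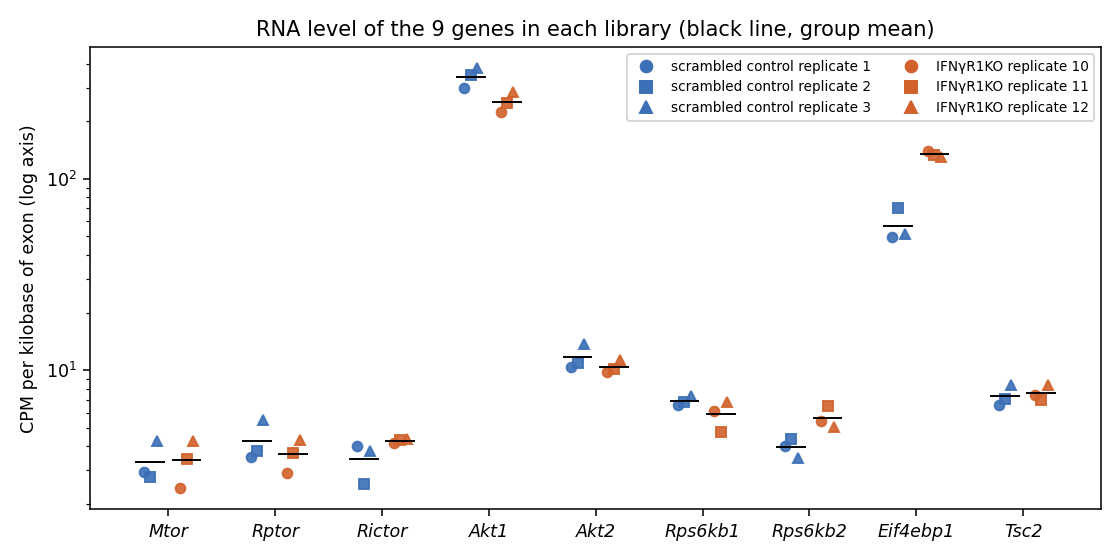
CPM per kilobase of exon (y axis, log axis) of the 9 genes (x axis) in each of the 6 libraries; points are libraries and black lines are group means (n = 3). Akt1 is highest in every library, Eif4ebp1 moves towards it in IFNγR1KO cells, and Rptor, Rps6kb2, Rictor and Mtor have the lowest means in scrambled control cells, with overlapping values.

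A list of 52 other genes of the pathway was examined for the company these 9 genes keep. Of 49 that were tested, 11 were called, 4 higher and 7 lower in IFNγR1KO cells, or 22.4% beside 15.3% of all tested genes, with a median log2 fold change of -0.06. Prr5l, Eif4ebp3 and Grb10 had too few counts for the test. Of the 4E-BP paralogues and partners in translation initiation, 3 of 7 (42.9%) were called, all lower, beside 15.3% of all tested genes called and 7.62% called lower. The estimates of all 7 were lower, with a median of -0.45, beside lower estimates for 6848 of all 13642 tested genes. Beside Eif4ebp2 and Eif4e the called genes include Eif4g3, a scaffold of the cap-binding complex, which fell from 115 ± 10.2 to 77.6 ± 8.62 CPM (SD, n = 3 each; log2 fold change -0.57, adjusted p = 0.0170). Eif4g3 was called in 4 of 6 fits without 1 library (adjusted p up to 0.119). Of the mTOR complex subunits and assembly factors, 2 of 8 (25%) were called, both lower, beside the same 15.3% and 7.62% of all tested genes. Prr5, a subunit of mTORC2, fell from 24.9 ± 2.09 to 14.2 ± 1.88 CPM (SD, n = 3 each; log2 fold change -0.81, adjusted p = 0.00598), and was called in all 6 fits without 1 library. Tti1, which helps to assemble the kinases of this family, had a log2 fold change of -0.55 (adjusted p = 0.0319), called in 1 of those 6.

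Among the substrates of S6K and their relatives, 2 of 9 were called, both higher. This was 22.2%, beside 15.3% of all tested genes called and 7.73% called higher. Pdcd4, an inhibitor of translation initiation that S6K1 marks for degradation, had 37, 45 and 64 counts in scrambled control and 110, 122 and 105 in IFNγR1KO libraries, without overlap. It rose from 4.89 ± 1.14 to 15.6 ± 0.883 CPM (SD, n = 3 each), and its log2 fold change was 1.67 (SE 0.20, adjusted p = 0.000283). Eef2k, the kinase that slows elongation and is inhibited by S6K, rose from 51.1 ± 9.01 to 98.8 ± 19.9 CPM (SD, n = 3 each; log2 fold change 0.95, adjusted p = 0.00354). Both were called in all 6 fits without 1 library.

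Of the Akt substrates, 2 of 8 were called, or 25% beside 15.3% of all tested genes. Mdm2, the ubiquitin ligase of p53, had a log2 fold change of 0.46 (adjusted p = 0.0340, called in 1 of 6 fits without 1 library), and Tbc1d4, which acts in glucose transporter traffic, had one of -0.71 (adjusted p = 0.0142, called in 4 of 6). Of the Akt activators, phosphatases and the Akt-related kinase genes Sgk1 and Sgk3, 1 of 7 was called (14.3%). Ppp2r5c, a regulatory subunit of the phosphatase PP2A, fell from 229 ± 20.5 to 142 ± 5.85 CPM (SD, n = 3 each; log2 fold change -0.70, adjusted p = 0.00437). Of the other mTORC1 substrates, 1 of 6 was called (16.7%). Atg13, a subunit of the kinase complex that starts autophagy, rose from 26.9 ± 3.55 to 44.8 ± 7.72 CPM (SD, n = 3 each; log2 fold change 0.74, adjusted p = 0.0109). It was called in 5 of 6 fits without 1 library (adjusted p up to 0.0631). None of the 4 genes around TSC and Rheb (Tsc1, Tbc1d7, Rheb and Rhebl1) was called by edgeR's quasi-likelihood test. Of them 1 had an unadjusted p under 0.05, beside 3948 of all 13642 tested genes.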

How the data were processed

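Poly(A) RNA of 3 scrambled control and 3 IFNγR1KO cultures was sequenced with paired-end reads. The authors aligned them to GRCm38 with STAR 2.7.5a and deposited the raw HTSeq 0.11.2 counts of each gene, not normalized. The strand setting and annotation release are not given in the sources used here. Between 46.9% and 47.7% of the read pairs in a library were assigned to no gene and stayed out. Between 45.95% and 47.0% were counted on genes. Whether the unassigned pairs include reads from the other strand of genes was not tested. GENCODE M21 held 55154 of the 55335 identifiers and gave symbols, positions and exonic lengths. In R 4.3.3, edgeR 4.0.16 (filterByExpr, TMM, quasi-likelihood, Benjamini-Hochberg) compared the groups and was tested on simulated data. DESeq2 1.42.0 and limma 3.58.1 were alternatives, as were other scalings and filters, thinning and leaving out libraries. The study used DESeq2 1.34.0. CPM per kilobase divides by the length of the merged exons. Intervals cover counting error and spread between cultures. Genes named are the 9, Ifngr1, members of the ratios, up to 3 called genes per role and direction, and the 5 most like the gene of smallest adjusted p; Coro1b, Pkd1, Ptprcap and Akt2-ps were added for their overlap, and the neighbours of Akt1 after values were seen. Genes and lists were chosen with earlier results of these data known. One item on the lists is left out of the text. Libraries of 1 group differed by more than sampling noise (chi-square per degree of freedom 2.20 to 16.7), so each counted as 1 sample.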

Additional observations from a re-analysis of the deposited data

How the results depend on the processing

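Of 135 refitted fold changes of the 9 genes, 115 kept their direction and their side of the threshold. Eif4ebp1 did so in every alternative. Akt1 passed with DESeq2 (-0.45), with no filter (-0.47), with the length index (-0.42) and without both libraries of high length index (-0.46), and over the fits without 1 library it lay between -0.54 and -0.36. Rps6kb2 did not pass with DESeq2 (0.50), RLE scaling (0.51), no filter (0.48) or thinning to the smallest total (0.52), and lay between 0.42 and 0.59 without 1 library. Mtor was at -0.0055 with no filter and between -0.18 and 0.25 without 1 library (below 0 without scrambled control replicate 1 or 2 or IFNγR1KO replicate 12), and Tsc2 lay between -0.029 and 0.15. Under RLE scaling and under thinning 1 of the 9 was called, and without 1 library 1 to 3. With the length index, 3932 genes and 17 of the other pathway genes were called; without 1 library the counts ran from 1028 to 2824 and from 5 to 13, falling by over 1.5 times without scrambled control replicate 2 (1087 and 6), IFNγR1KO replicate 10 (1095 and 5) or IFNγR1KO replicate 11 (1028 and 5). With no scaling factor the median log2 fold change of all genes was 0.05, and 1174 were called higher and 755 lower, in place of 1054 and 1039. Without 1 library, the log2 difference of Rps6kb1/Rps6kb2 ran from -0.94 to -0.50, Rptor/Rictor from -0.81 to -0.42, Rictor/Mtor from 0.11 to 0.52, Eif4ebp1/Eif4ebp2 from 1.76 to 2.31 and Eif4ebp1/Eif4e from 1.59 to 1.82, and Tsc1/Tsc2 went from 0.19 to -0.009. Shares depended on the length used: with no length, Akt1 stood at 94.4% and 93.3% of Akt1 and Akt2, Rps6kb1 at 74.6% and 63.4% and Eif4ebp1 at 48.7% and 79.2%, and per longest coding transcript Rps6kb1 stood at 70.9% and 59.0%, in scrambled control and IFNγR1KO cells. Why the calls and fold changes above moved between alternatives was not tested. No paired analysis was possible because the groups share no replicate number. Depth and the overlap with AC115631.1 may both limit Eif4ebp3, with at most 1 count in a library. The SE of Rps6kb2 (0.16, at 185 to 247 counts) was no larger than that of Akt1 (0.16, at 6460 to 16021 counts).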

Other observations

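Akt1 has close neighbours on chromosome 12, and the 7 other protein-coding genes within 100 kb of it were read from the same fit, a choice made after values were seen. Going along the chromosome, Inf2 (log2 fold change -0.53, adjusted p = 0.0313), Siva1 (-0.43, adjusted p = 0.0613), Akt1 itself (-0.44) and Zbtb42 (-0.62, adjusted p = 0.0370) had lower estimates in IFNγR1KO cells. Adssl1 between Inf2 and Siva1 (0.14, adjusted p = 0.688) and Cep170b (0.02, adjusted p = 0.968) did not, and Ahnak2 (0.62, adjusted p = 0.0481) was called higher. Of all tested genes, 15.3% were called. In CPM per kilobase of exon, Inf2 went from 20.7 ± 2.61 to 14.4 ± 1.87, Siva1 from 38.5 ± 4.57 to 28.5 ± 3.00 and Zbtb42 from 4.15 ± 0.143 to 2.71 ± 0.430 (SD, n = 3 each). Adssl1 went from 7.97 ± 2.00 to 8.81 ± 0.828, Cep170b from 13.3 ± 2.61 to 13.5 ± 3.38 and Ahnak2 from 3.78 ± 1.23 to 5.80 ± 0.319 (SD, n = 3 each). Pld4 had too few counts for the test.

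The 5 tested genes whose log2 CPM ran most like that of Eif4ebp1 over the 6 libraries were Gm48956, Sars, Gm13857, Mrm1 and Gatd1, with Pearson's r from 0.994 to 0.998, given as a description over libraries that fall into 2 groups. Of all tested genes, 296 had an r above 0.95. Sars, the cytosolic seryl-tRNA synthetase, was the most abundant of the 5, going from 426 to 885 CPM in IFNγR1KO cells (log2 fold change 1.06, adjusted p = 0.000923). Gatd1 went from 7.45 to 14.0 CPM (0.91, adjusted p = 0.00680) and Mrm1 from 14.0 to 21.4 CPM (0.61, adjusted p = 0.0189).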
